A study of Schmidtea mediterranea with 2 samples.

Results

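RNA-rich beads, with at least 1000 unique molecular identifiers (UMIs, each counting 1 captured RNA molecule), were compared with RNA-poor beads, with 50 to 200 UMIs, on 1 planarian Slide-seqV2 puck. Both groups were chosen by their total UMIs in the table that holds both sequencing runs after Syrah correction, so the difference in total UMIs is not a result. The rule gave 642 RNA-rich and 4461 RNA-poor beads, 5103 of the 8789 beads with at least 50 UMIs and of the 33518 beads with at least 1 UMI. The other 3686 beads with at least 50 UMIs held 201 to 999. RNA-rich beads were 7.30% of the beads with at least 50 UMIs and carried 30.5% of all UMIs. RNA-poor beads were 50.8% and carried 13.9%.

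The tissue was fragments of the flatworm Schmidtea mediterranea, frozen in embedding medium and sectioned on a cryostat, and polyadenylated RNA was captured. The labels give no strain, age, treatment or number of animals. They describe 1 library sequenced in 2 runs, with no replicate, so no difference below has a test. Syrah is the tool the study presents: it repairs bead barcodes that lost or changed a base before reads are assigned to beads. A bead is a small capture spot that can take RNA from several cells, from part of a cell or from RNA that moved across the section. How much RNA it captures depends on the tissue above it and on the bead, and these cannot be told apart for a single bead. Fewer cells over a bead and less RNA per cell cannot be told apart either.

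Planarians keep a large population of dividing stem cells, the neoblasts, which lie in the tissue around the gut and supply every cell type of the animal. piwi-1, a member of the Argonaute family of small RNA-binding proteins, is the standard neoblast marker. The intestine is a branched gut that runs through most of the body and is rich in cells that take up and store food. mat2a, which encodes the enzyme that makes S-adenosylmethionine, served the study as its intestine marker.

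Each bead is identified by a 14-base barcode. The barcodes of the 3 beads with the most UMIs and of the beads on either side of the upper limit are shown as examples of the members, with G in capitals because G content is compared between the groups later.
Bead with the most UMIs: cGctccatattaGt
Second most UMIs: GaGtcttcttGGct
The third most UMIs: atGccaatcccGaa
Just inside the limit of 1000 UMIs: ccGctacGGaGcta
Just outside it: caatccGGatattG
The first of these held 6388 UMIs of 1842 genes, the second 5335 UMIs of 1635 genes and the third 5063 UMIs of 1512 genes. The bead just inside the limit held 1001 UMIs of 458 genes and the bead just outside it held 999 UMIs of 435 genes, so the limit separated beads that were almost alike. There were 115 beads less than 10% above the limit of 1000 and 147 less than 10% below it. At the other limits, 200 UMIs counted as RNA-poor and 201 did not, and 50 counted and 49 did not. The median was 1368.5 UMIs on RNA-rich and 96 UMIs on RNA-poor beads.

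Nearly all RNA-rich beads lay in areas of dense RNA. The puck showed 14 RNA-dense areas, drawn after the data were seen. They are connected sets of barcodes whose 50 nearest barcodes averaged at least 30 UMIs in the uncorrected table of the first run. Each barcode counts among its own 50, so a bead with many UMIs raises its own average. These areas were made partly from the same reads as the groups, and their edge is by construction where UMIs drop. Many RNA-rich beads inside the areas and few near the edge therefore follow in part from the definition. The areas are not measured outlines of tissue. Of the RNA-rich beads, 628 of 642 (97.8%) lay inside an area, against 2329 of 4461 (52.2%) of the RNA-poor beads. Distances are in the units of the coordinate table, which names none. Inside the areas, the median distance to the nearest barcode outside was 97.4 units for RNA-rich and 63.0 units for RNA-poor beads, and 5.89% and 40.4% of them lay within 50 units of that edge. In the outermost 25 units, 0.676% of the beads with at least 50 UMIs were RNA-rich (4 of 592), rising to 2.69% at 25 to 50 units, 12.5% at 50 to 100 units, 14.5% at 100 to 150 units and 15.8% beyond. RNA-poor beads took the opposite course, from 61.8% of the beads in the outermost 25 units to 29.3% beyond 150 units. Most of this change was in the outer 100 units, and RNA-poor beads were still the larger group in the interior.

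**Figure D1:**
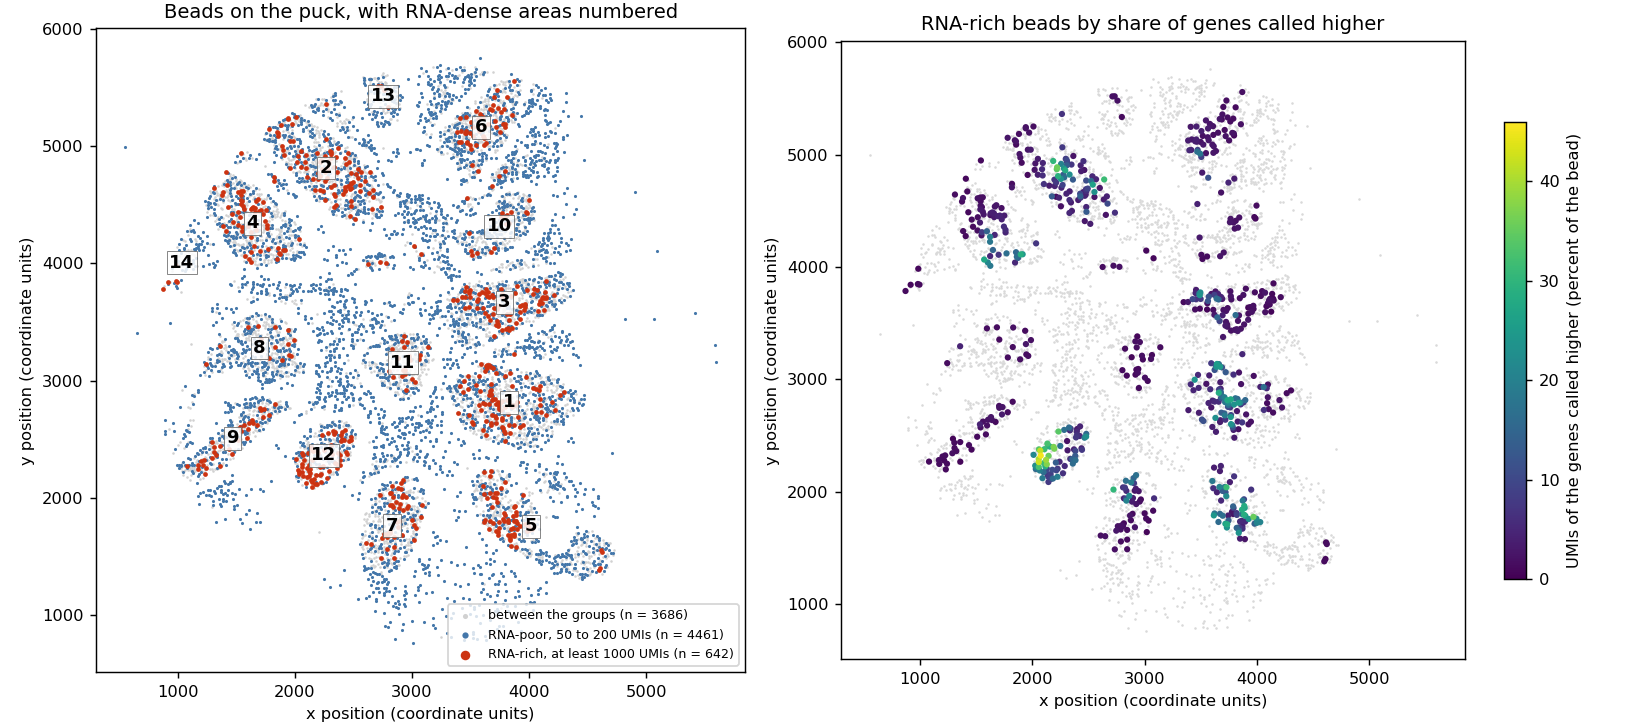
Left, position of every bead with at least 50 UMIs on the puck (coordinate units), with RNA-rich beads in red, RNA-poor beads in blue, beads of 201 to 999 UMIs in grey and the 14 RNA-dense areas numbered. Right, the 642 RNA-rich beads coloured by the percent of their UMIs that came from the 105 genes with a higher share on RNA-rich beads, over RNA-poor beads in light grey. RNA-rich beads lie almost wholly inside the areas, and beads of high percentage sit next to each other in areas 1, 2, 5 and 12.

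RNA-rich beads also had other RNA-rich beads around them. Among the 20 nearest beads with at least 50 UMIs, 16.2% were RNA-rich around an RNA-rich bead and 5.27% around an RNA-poor bead, against 7.30% of all such beads. The nearest other RNA-rich bead was at a median of 32.0 units from an RNA-rich bead, and the nearest RNA-rich bead at a median of 110 units from an RNA-poor bead. The 50 barcodes nearest to a bead, its own included, were also counted, whatever they held. Around RNA-rich beads a median of 34% had at least 10 UMIs in the uncorrected first run, and around RNA-poor beads 28%. Even around RNA-rich beads, 32.7% of the 20 nearest beads were RNA-poor, so both kinds stood side by side. The areas differed in their share of RNA-rich beads. Area 12 had 66 of 311 beads (21.2%, exact binomial 95% interval 16.8 to 26.2%), and area 8 had 14 of 446 (3.14%, 1.73 to 5.21%). Areas 1 to 7 lay between 9.34% and 12.7%. The labels do not say which areas came from the same animal, so areas are not replicates.

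**Figure D2:**
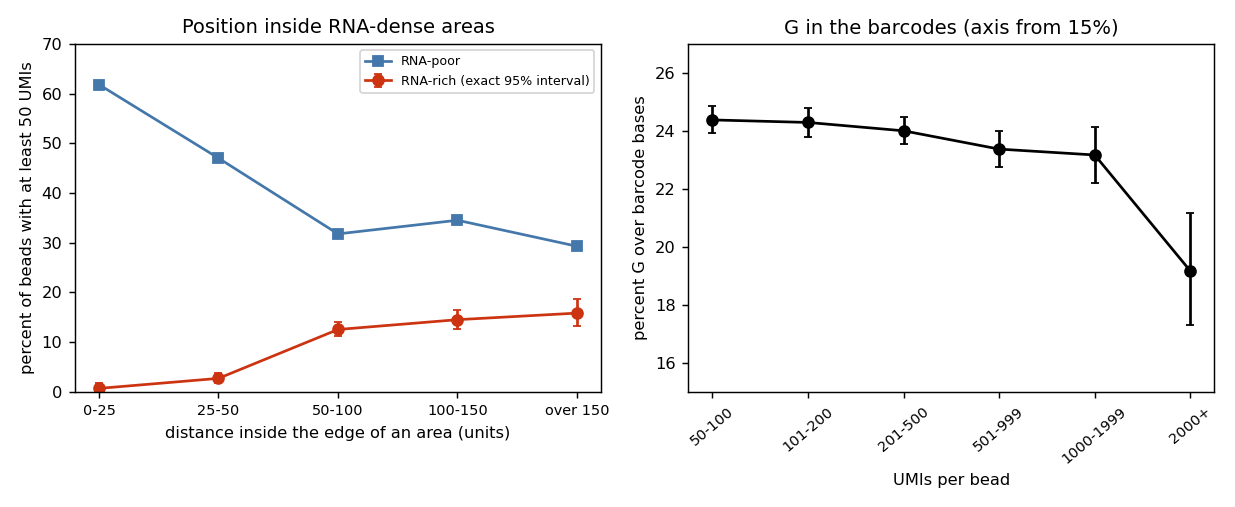
Left, percent of the beads with at least 50 UMIs that were RNA-rich (red, with exact binomial 95% intervals) or RNA-poor (blue) against distance inside the edge of an RNA-dense area, in coordinate units. RNA-rich beads rise from 0.676% in the outermost bin to 15.8% in the innermost. Right, percent G over all barcode bases against UMIs per bead, with exact binomial 95% intervals. The value falls from 24.4% at 50 to 100 UMIs to 19.2% at 2000 or more, on an axis that starts at 15%.

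In gene content the groups differed moderately. Each gene's UMIs were summed over the beads of a group and divided by all UMIs of that group, which gives its share, and the ratio is the share on RNA-rich over the share on RNA-poor beads. Intervals of ratios are exact conditional 95% Poisson intervals. They cover counting error only, not the differences between beads, fragments or animals. Of 18942 genes seen in either group, 1003 averaged at least 100 CPM (UMIs per 1000000 UMIs of a group) over both groups and were compared. A ratio of at least 1.5 was called higher and one of at most 1/1.5 lower. By that rule 105 genes were higher (10.5% of those compared), 72 were lower (7.18%) and 826 were neither. At least 2-fold, 40 were higher and 29 lower, and at least 3-fold, 10 and 7. The median ratio was 1.06, with the 5th and 95th percentiles at 0.597 and 1.88. With the most abundant gene left out of the totals, 1179 genes were compared, and 107 were higher (9.08%) and 103 lower (8.74%). The median ratio was then 1.006, so the excess of higher over lower genes depended largely on that 1 gene. The higher genes together made up 8.60% of the UMIs on RNA-rich and 3.72% on RNA-poor beads, and the lower genes 2.67% and 5.29%. These sums follow from how the genes were picked. Of the 105 higher genes, 67 had fewer than 100 UMIs on RNA-poor beads, so many of their ratios are imprecise. Without a fold limit, the interval lay above 1 for 226 genes, below 1 for 153 and held 1 for 624, which is 22.5% above and 15.3% below.

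The files name genes only by transcript identifiers, and no role is given here to an identifier beyond the study's marker lists. The 2 highest ratios belonged to SMED30026235 and SMED30010939. SMED30026235 had 408 UMIs on RNA-rich and 48 on RNA-poor beads, 398 and 103 CPM, a ratio of 3.88 (95% interval 2.87 to 5.34). SMED30010939 had 914 and 113 UMIs, 891 and 242 CPM, a ratio of 3.69 (3.03 to 4.53). These 2 genes shared beads. SMED30026235 was counted on 167 RNA-rich beads and SMED30010939 on 229, and 129 beads held both, 77.2% of the former and 56.3% of the latter. The beads that carried each of them had medians of 1652 and 1596 UMIs, above the group median of 1368.5. RNA-rich beads with the 2 genes of lowest ratio, named below, also lay above it, with medians of 1589 and 1449 UMIs. A bead with more UMIs is more likely to show any sparse gene, so this is not particular to the highest ratios.

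The 2 lowest ratios belonged to SMED30010932 and SMED30032103. SMED30010932 had 52 UMIs on RNA-rich and 235 on RNA-poor beads, 50.7 and 502 CPM, a ratio of 0.101 (0.0733 to 0.137). SMED30032103 had 35 and 102 UMIs, 34.1 and 218 CPM, a ratio of 0.157 (0.103 to 0.232). Both were more frequent outside the RNA-dense areas than inside them. On RNA-poor beads, SMED30010932 had 855 CPM outside and 231 inside, and SMED30032103 had 403 and 75.7. Among beads inside the areas their ratios rose to 0.207 (0.139 to 0.308) and 0.461 (0.259 to 0.844). Part of each difference thus went with position and part was present within the RNA-dense areas.

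**Figure D3:**
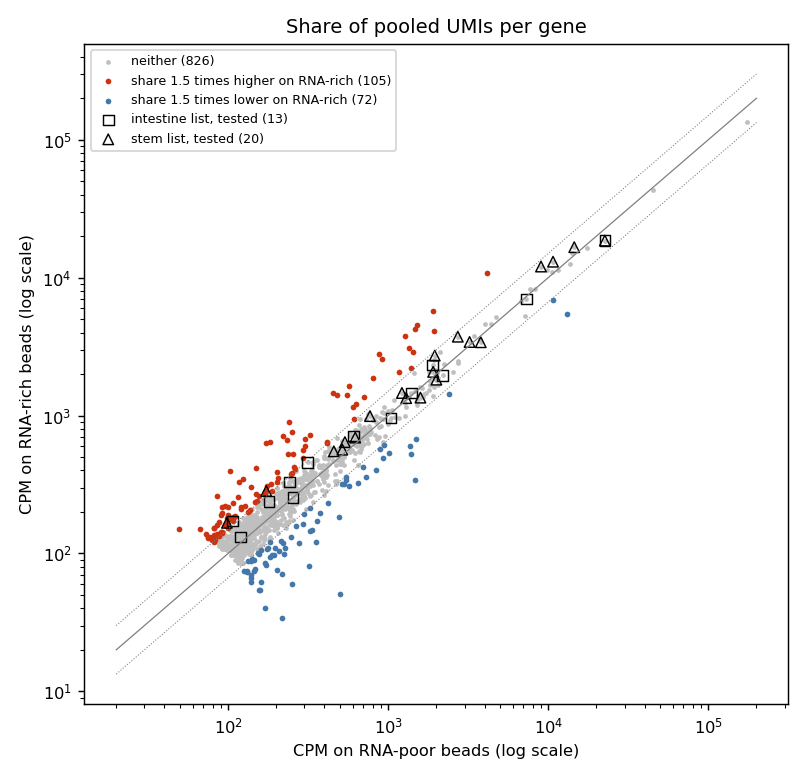
Share of pooled UMIs for the 1003 genes compared, in CPM on RNA-poor (x axis) and RNA-rich beads (y axis), both on log scales, with equality as a solid line and the 1.5-fold limits dotted. The 105 higher genes are red, the 72 lower genes blue, and the tested genes of the intestine list (squares) and stem cell list (triangles) are outlined. Most genes lie between the dotted lines, and 3 of the outlined genes lie above them.

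The most abundant transcript was less dominant on RNA-rich beads. SMED30032887 took 13.4% of the UMIs there and 17.5% on RNA-poor beads, a ratio of 0.766 (0.760 to 0.773). Bead by bead, its median share was 13.4% (quartiles 11.3 and 15.3%) on RNA-rich and 16.9% (12.7 and 21.8%) on RNA-poor beads, so the single-bead values overlapped. Its ratio was below 1 in 12 of the 12 areas with at least 10 RNA-rich beads, from 0.687 to 0.875. On RNA-poor beads it took nearly the same share inside and outside the areas, and the inside ratio was 0.769. The second most abundant transcript, SMED30031105, had 4.35% and 4.54%, a ratio of 0.958 (0.943 to 0.974), below 1 in 10 of 12 areas. The third, SMED30016196, which stands on both of the study's marker lists, had 1.86% and 2.26%, a ratio of 0.822 (0.803 to 0.842), and 0.699 inside the areas, where it was below 1 in 12 of 12. The 10 most abundant genes of each group took 29.4% of RNA-rich and 33.8% of RNA-poor UMIs.

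Complexity at equal depth was slightly greater on RNA-rich beads. As counted, the median number of genes per bead was 564 on RNA-rich and 61 on RNA-poor beads, which mostly follows depth. With every bead thinned at random to 50 UMIs, and none left out, the medians were 39 genes (quartiles 36 and 41) and 36 genes (33 and 39). The spreads overlapped.

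Neither tissue marker separated the groups. piwi-1 had 658 UMIs on RNA-rich and 251 on RNA-poor beads, 642 and 537 CPM, a ratio of 1.20 (1.03 to 1.39), and 1.34 (1.10 to 1.63) inside the areas. It was above 1 in 9 of 12 areas. mat2a had 338 and 113 UMIs, 330 and 242 CPM, a ratio of 1.36 (1.10 to 1.70), and it was above 1 in 8 of 12 areas. Inside the areas alone its ratio was 1.16 (0.903 to 1.52), so that interval held 1. Neither passed the 1.5-fold limit in either direction. Against beads of at least 2000 UMIs, the ratio of mat2a turned to 0.909 and that of piwi-1 was 1.46, just under the limit. Against the 5 nearest RNA-poor beads of each RNA-rich bead (a comparison also made for all genes) they were 1.02 and 1.16.

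The study's list of stem cell markers had 22 genes, all found, and 20 were compared. Of these, 2 were higher and 0 lower, against 10.5% and 7.18% of all genes compared, with a median ratio of 1.17 beside 1.06 for all genes compared. The higher ones were SMED30031463, with 171 and 46 UMIs and a ratio of 1.70 (1.22 to 2.40), and SMED30001362, with 291 and 81 UMIs and a ratio of 1.64 (1.28 to 2.12). Counting every listed gene, 17 ratios were above 1 and 5 below. Most of all genes compared also lay above 1, since their median was 1.06. The whole list made up 8.56% of RNA-rich and 7.98% of RNA-poor UMIs, a ratio of 1.07 (1.06 to 1.09). Inside the areas it was 1.02 (1.01 to 1.04), and it was above 1 in 7 of 12 areas. SMED30016196, at 0.822, weighs heavily in that sum. Without it the ratio was 1.17 (1.15 to 1.19), and 1.18 (1.15 to 1.20) inside the areas, above 1 in 12 of 12, from 1.03 to 1.36.

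The intestine list had 15 genes, all found, and 13 were compared. Of these, 1 was higher and 0 lower, against 10.5% and 7.18% of all genes compared, with a median ratio of 1.10 beside 1.06. The higher one was SMED30003470, with 176 and 50 UMIs and a ratio of 1.61 (1.17 to 2.24). SMED30020778, with 142 and 28 UMIs, had 2.31 (1.53 to 3.60) but lay under the abundance limit. Counting every listed gene, 11 ratios were above 1 and 4 below, where most of all genes compared also lay above 1. Yet the pooled list was lower on RNA-rich beads, at 3.48% against 3.83%, a ratio of 0.908 (0.892 to 0.925). The opposite sign of the median and the pooled value came from SMED30016196, which supplied more than any other gene of the list, since without it the ratio was 1.03 (1.003 to 1.06). Inside the areas the pooled ratio was 0.796 (0.779 to 0.813), and it was below 1 in 12 of 12 areas, from 0.664 to 0.988. Without SMED30016196 it was 0.948 (0.917 to 0.980) inside the areas, below 1 in 7 and above 1 in 5 of the 12, from 0.745 to 1.31. The methods credit the markers to an earlier single-cell atlas. The marker table labels most of them DE without defining the label, so whether these same data helped to choose them is not known, and their counts are a description.

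**Figure D4:**
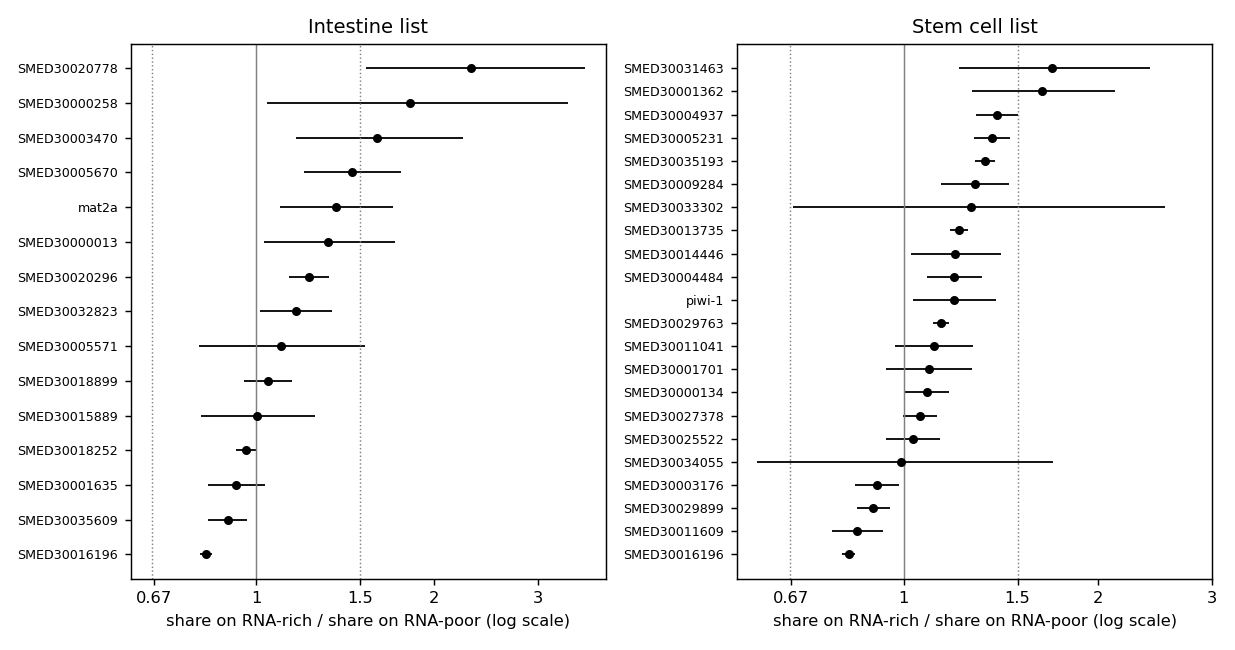
Ratio of the share on RNA-rich to the share on RNA-poor beads (log scale) for each gene of the intestine list (left, 15 genes) and of the stem cell list (right, 22 genes), with exact conditional 95% Poisson intervals. The solid line marks 1 and the dotted lines the 1.5-fold limits. The interval lies above 1 for 8 intestine and 12 stem cell genes and below 1 for 2 and 4. Of all 1003 genes compared, it lay above 1 for 22.5% and below 1 for 15.3%. That set leaves out listed genes under the abundance limit, and genes with more UMIs have narrower intervals. The percentages are therefore not a like baseline.

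Between the groups the shares ran gradually. In beads of 50 to 100, 101 to 200, 201 to 500, 501 to 999, 1000 to 1999 and 2000 or more UMIs, SMED30032887 took 18.1%, 17.2%, 16.4%, 15.1%, 13.9% and 12.4% of the UMIs. Each class was lower than the one before. SMED30010939 went from 221 to 254, 336, 361, 709 and 1286 CPM over the same classes, with its steepest rise at 1000 UMIs and above. SMED30010932 went from 681 to 399, 139, 74.8, 51.3 and 49.5, so its fall was nearly complete below 1000 UMIs. SMED30010939 and SMED30010932 were picked by their ratio between RNA-rich and RNA-poor beads. The gap between their lowest and highest classes follows in part from that choice. piwi-1 showed no steady course, with 617, 490, 551, 523, 576 and 785 CPM. mat2a was higher from 201 to 1999 UMIs than at either end, with 227, 250, 360, 337, 380 and 220 CPM. Its largest value was on RNA-rich beads of 1000 to 1999 UMIs. The stem cell list rose from 7.91% to 8.75%, while the intestine list had 3.68%, 3.92%, 4.01%, 3.995%, 3.68% and 3.04%, lowest on the deepest 117 beads.

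**Figure D5:**
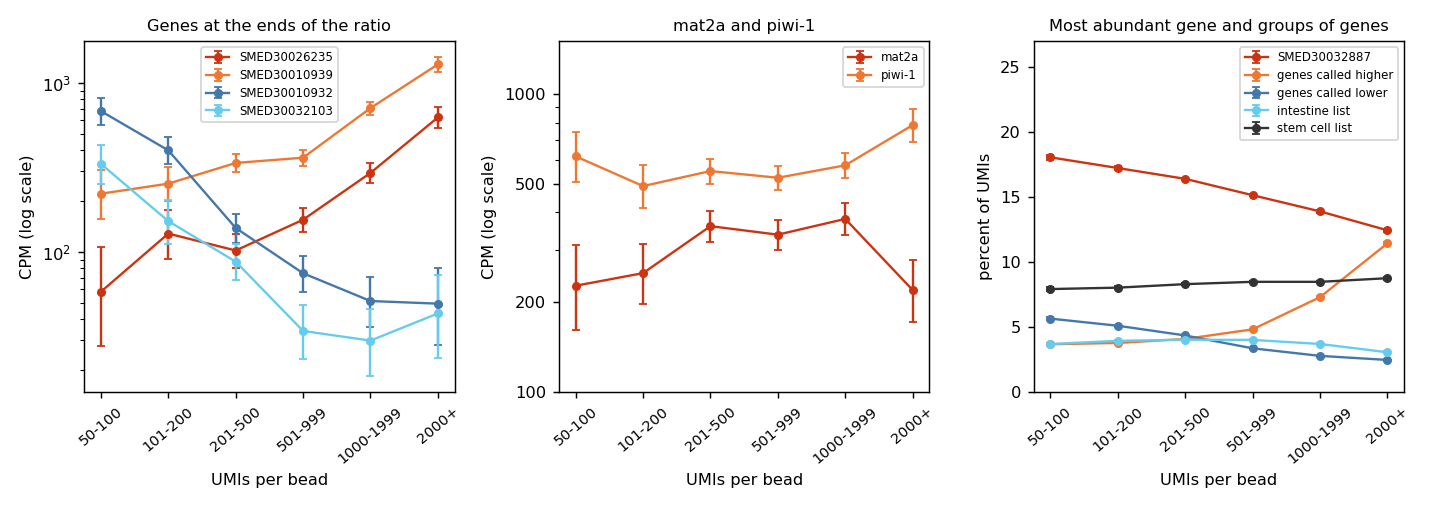
Shares in 6 classes of UMIs per bead, with exact 95% Poisson intervals, from beads of 50 to 100 UMIs to beads of 2000 or more. Left, the 2 genes of highest and the 2 of lowest ratio, and centre, mat2a and piwi-1, in CPM on log scales. Right, the most abundant gene, the genes called higher and lower and the 2 marker lists, in percent of UMIs. The genes called higher rise most in the last 2 classes, the RNA-rich beads on which they were called, so this follows in part from the choice.

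The 105 higher genes were far from evenly spread over the RNA-rich beads. They took a median of 3.72% of a bead's UMIs, with quartiles of 1.94 and 10.8% and a range from 0.554 to 45.2%. On 384 RNA-rich beads they took under 5% and on 75 (11.7%) over 20%. Beads with high values lay together. Across the 642 beads, the percentage correlated with the mean of the 3 nearest other RNA-rich beads at Spearman's rho 0.85, as a description of beads of 1 library that share neighbours. Its correlation with the bead's own UMIs was 0.22. The 75 beads lay in 7 of the 14 areas, with 22 of them in area 12, 18 in area 5, 14 in area 1 and 12 in area 2. Area 12 had the largest percentage over its RNA-rich beads, 18.0%, and areas 8 to 11, 13 and 14 had between 1.15% and 2.05% and no bead above 20%. Of the 105 genes, 37 had at least 5 times the share on the 75 beads that they had on the other 567, SMED30026235 with 6.77 times and SMED30010939 with 7.87 times among them. Against the UMIs of all other genes, so that the higher genes do not push each other down, 40 had at least 5 times and 32 a lower share. The beads were sorted by these same genes, which sets much of these counts, and they are a description.

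On the 75 beads the stem cell list took 7.32% of the UMIs, and on the 384 beads with under 5% it took 9.01%. Since the higher genes themselves fill part of each bead, the lists were also set against the UMIs of all other genes, leaving out list members called higher. On that scale the stem cell list took 10.1% on the 75 beads and 9.19% on the 384, so its direction turned. The intestine list had 2.10% and 3.96% of all UMIs and 2.89% and 4.04% on the second scale, lower on the 75 beads either way. The most abundant gene, SMED30032887, had 10.97% and 14.1%, and 15.2% and 14.5% on the second scale, where its direction also turned.

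The summed share of the 105 genes on RNA-poor beads varied with their surroundings. Inside the areas, beads were sorted by the mean percentage of the higher genes on their 3 nearest other RNA-rich beads. Where that was under 5%, the higher genes took 2.80% of the UMIs of RNA-rich and 1.57% of RNA-poor beads. Between 5 and 20% they took 11.3% and 6.21%, and over 20% they took 24.2% (59 beads) and 15.1% (106 beads). The summed value on RNA-poor beads was thus higher where that of the RNA-rich beads beside them was higher, and which genes made it up was not compared. Within each setting the ratio was 1.78 (1.71 to 1.86), 1.82 (1.77 to 1.88) and 1.60 (1.53 to 1.68), smaller than the 2.31 of the pooled groups, for genes chosen on these same beads. The lower genes moved the other way in each setting, with ratios of 0.514, 0.424 and 0.336.

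The pooled RNA-rich beads were also set against the 5 nearest RNA-poor beads of each, 1413 beads in all at a median of 44.4 units. Each RNA-poor bead was weighted by the number of RNA-rich beads that chose it. These beads were then pooled, so no bead was compared with its own neighbours alone. The genes called changed. Of 959 genes compared, 145 were higher and 82 lower. Of the 105 higher genes, 53 (50.5%) were called again, which is 36.6% of the 145, and 99 still had a ratio above 1. Of the 72 lower genes, 20 (27.8%) were called again, 24.4% of the 82, and 52 still had a ratio below 1. The stem cell list then had a ratio of 0.999 and the intestine list 0.787. Most of the genes called lower over the whole puck therefore did not pass the limit against the pooled nearest RNA-poor beads. Fewer beads and UMIs stood behind each share there. With all beads inside the areas, a wider set, 89 of the 105 (84.8%) and 49 of the 72 (68.1%) were called again. They were 69.5% and 66.2% of the 128 higher and 74 lower genes called there. Both comparisons reused beads on which the genes were first called, with 628 of the 642 RNA-rich beads inside the areas. Much of this overlap is therefore built in.

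Calls made on the left and right sides of the puck were partly shared. The puck was split at its median x position into a left side with 328 RNA-rich and 2181 RNA-poor beads and a right side with 314 and 2280. Of 128 genes called higher on the left, 110 were compared on the right and 56 of these (50.9%) were called higher there, against 13.4% of all genes compared on the right. Of 89 called lower on the left, 70 were compared and 39 (55.7%) were called lower, against 8.49% of all. The 56 were 43.8% of the left and 42.7% of the right calls, and the 39 were 43.8% and 47.0%. Over 893 genes compared on both sides, the log ratios correlated at Spearman's rho 0.51 and 619 lay on the same side of 1. This describes 2 sides of 1 library and is not a replication.

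Single beads did not carry these calls as a rule. The bead with the most UMIs of a gene held a median of 2.92% of that gene's UMIs on RNA-rich beads for the higher genes and 2.77% on RNA-poor beads for the lower genes. In 3 of the 105 higher genes 1 RNA-rich bead held over 20%, at most 38.6%. Without the 10 deepest beads the counts were 104 and 73. The lower set was less even between genes, since its most abundant gene supplied 24.8% and its 5 most abundant 55.1% of the set's 24732 UMIs on RNA-poor beads.

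G was slightly less frequent in the barcodes of RNA-rich beads, with wide overlap between beads. A barcode had a mean of 3.14 G (SD 1.67, n = 642) on RNA-rich and 3.41 (SD 1.74, n = 4461) on RNA-poor beads, with a median of 3 in both, and 15.3% and 13.6% of beads had 0 or 1. Over the 14 positions, G made up 22.4% (exact binomial 95% interval 21.6 to 23.3%) of the bases on RNA-rich beads and 24.3% (24.0 to 24.7%) on RNA-poor beads, against 25.4% over all 83348 barcodes of the coordinate table. These intervals treat the bases of a barcode as independent. The barcodes shown at the start have 2, 4, 2, 4 and 3 G. G was looked at after the base contents were seen, and it was less frequent on RNA-rich beads at 11 of 14 positions, lowest at 18.8% at position 2 from the start of the barcode. By depth it ran 24.4%, 24.3%, 24.0%, 23.4%, 23.2% and 19.2% over the 6 classes used above, the last with an interval of 17.3 to 21.2% from 117 beads. In the uncorrected table, beads of at least 2000 UMIs (77) had 21.2% (18.7 to 23.7%). The difference was also present inside the areas (22.2% and 25.3%), in the uncorrected table with its own 459 and 3894 beads (22.5% and 24.3%), and without barcodes that have a near twin (22.9% and 24.6%). The 25.3% of RNA-poor beads inside the areas lay above the 24.3% of all RNA-poor beads and near the 25.4% of all barcodes. RNA-poor beads outside the areas therefore had less G than those inside, so G also went with position. T, the base the comparison was planned on, made up 25.8% and 24.97%, a difference of 0.823 percentage points with bounds from -0.421 to 2.08, which hold 0. What ties barcode bases to captured RNA was not tested.

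Since the groups were chosen on corrected totals, the effect of the correction on them is a description. A near twin is a barcode that differs by 1 substitution from another less than 10 units away. Of RNA-rich beads 30.1% (26.5 to 33.8%) had one, and of RNA-poor beads 22.5% (21.3 to 23.8%). Over all barcodes of the coordinate table it was 35.8%, which counts every member of a twin set. The correction keeps 1 barcode of each set, so that value is not a like baseline for beads of the corrected table. In the uncorrected table the RNA-rich beads held 641108 UMIs in place of 1025346, a factor of 1.60, and the RNA-poor beads had a factor of 1.48. With the UMIs of twins added together the factors were 1.28 and 1.31. Of the 642 RNA-rich beads, 360 reached 1000 UMIs uncorrected and 450 with twins added, so membership depends on the correction for the others. Uncorrected, 186 of the 642 held under 50 UMIs, and with twins added 93 (14.5%) of the RNA-rich and 673 (15.1%) of the RNA-poor beads held under 10% of their corrected UMIs. In the corrected table of the first run alone, 549 of them reached 1000 UMIs, and the second run multiplied UMIs by 1.08 in both groups.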

How the data were processed

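The authors sequenced 1 planarian Slide-seqV2 library in 2 runs, and per their methods counted them with version 3.1.2 of the WARP workflow for Slide-seqV2, with exon counting off and the schMedS3 genome, while the deposited tables carry SMED30 transcript identifiers. The deposited values are raw UMI counts, 1 row per gene and 1 column per bead, before and after Syrah correction. The tables hold 2461559 to 3364828 UMIs, and depth per group is given in the text. Positions come from the deposited coordinate table.

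Counts were pooled over the beads of each group and divided by the group total, with Python 3.11.15, numpy 2.4.6, scipy 1.17.1 and matplotlib 3.10.9. Genes averaging at least 100 CPM over both groups were compared, with a 1.5-fold limit and exact 95% intervals. With 1 library there was no count model and no p-value. The steps were checked on simulated counts. Named genes are the 2 highest and 2 lowest ratios among genes past the limit, the 3 most abundant genes, mat2a, piwi-1 and listed genes past the limit. SMED30020778, the sorting of beads by the higher genes, the dense areas, the nearest-bead comparison and G content were added after values were seen. The groups, marker lists and rules were chosen with earlier results of these data known. The 2 lists come from the study's marker table, which also pairs mat2a and piwi-1 with identifiers. The alternatives changed the UMI limits, the table, the filter, the fold, the weighting, the beads used and the neighbour settings.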

Additional observations from a re-analysis of the deposited data

How the results depend on the processing

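All of this is 1 library on 1 puck, without replicates, so the spread between sections or animals is unknown. No paired analysis was possible because there is 1 library. RNA-poor beads give little depth, and genes under 100 CPM were left out by the filter.

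The counts of 105 higher and 72 lower genes stayed within 1.5 times under every other bead set, table and weighting, except that 114 were lower with at least 2000 UMIs for RNA-rich. They followed the filter and the fold: 220 and 145 at 50 CPM, 55 and 33 at 200, 2129 and 1334 with only 10 UMIs over both groups required, and 40 and 29 at a fold of 2.

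The intestine list, 0.908, was 0.971 and 0.794 with limits of 500 and 2000 UMIs, 0.947 against beads of 50 to 100 UMIs, 0.882 in the uncorrected table, 0.887 in the first run, 0.870 over tissue, 0.952 with beads weighted equally, 0.934 and 0.887 on the left and right sides, 0.796 inside dense areas, 0.787 against the 5 nearest RNA-poor beads and 0.865 without the most abundant gene. It turned to 1.03 without SMED30016196. The stem cell list, 1.07, was 1.10 with a limit of 2000, 1.06 over tissue, 1.05 and 1.09 on the left and right, 1.02 inside dense areas, 1.02 without the most abundant gene and 1.17 without SMED30016196. It turned to 0.999 against the 5 nearest RNA-poor beads. mat2a turned to 0.909 with a limit of 2000. Over tissue here means a density cut from these same reads, not a measured outline. At least 25% of the 50 barcodes nearest to a bead had to hold 10 UMIs in the uncorrected first run.

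With a limit of 2000 UMIs for RNA-rich, 4.96% of the neighbours of RNA-rich beads were RNA-rich in place of 16.2%, since fewer beads count. The density difference, 6 percentage points, was 10 with a minimum of 50 UMIs. The gene difference at equal depth, 3, was 5 at 100 UMIs. The T difference was 2.20 points with a limit of 2000. The cause of each change was not tested unless stated. The alternatives inside dense areas, with the nearest beads and without single genes were chosen after seeing the data.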

Other observations

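Outside the RNA-dense areas, the UMIs per barcode did not fall steadily with distance from the nearest area. They were 17.7 within 25 units, 7.31 at 25 to 50, 4.97 at 50 to 75 and 8.66 at 75 to 100 units, then 14.4 at 100 to 150, 16.8 at 150 to 200, 12.8 at 200 to 300 and 8.38 beyond, over barcodes with x below 4500. The percent of barcodes with at least 50 UMIs was 8.38, 3.47, 2.50, 4.74, 6.71, 8.24, 7.09 and 3.49 over the same 8 classes. In all, 14 of these beads were RNA-rich. The low values close to the areas follow in part from how the areas were drawn. Barcodes whose local average reached 30 UMIs were linked when they lay within 40 units of each other. A dense barcode that close to an area was thus part of it. Linked sets of fewer than 300 barcodes counted as outside, so dense patches outside could only lie further off. The classes pool all areas, so whether a low band surrounds any given area was not tested.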
